A study of Mus musculus with 10 samples.

Results

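The 39 genes described here act in DNA replication and in the S phase of the cell cycle. They were taken by symbol from the deposited expression table, which lists 56691 mouse gene IDs, and each of the 39 symbols had 1 entry there. The table holds RNA-seq values of esophageal epithelium in 10 libraries. The 5 KO libraries come from p63CreERT2;Mst1loxp/loxp;Mst2-/- mice and the 5 WT libraries from wild-type mice. The inducible Cre carries the name of p63, a transcription factor that marks basal cells of squamous epithelia, so loss of Mst1 depends on the cells in which it is active, whereas the Mst2 null alleles do not depend on it. Tamoxifen was given to KO and WT mice alike, in 3 doses of 100 mg/kg at intervals of 2 weeks, and the epithelium was collected at about 8 weeks. The sources used here give neither age nor time of day at collection, nor whether the wild-type mice carried the Cre or shared the genetic background of the KO mice. No label ties a library to its own mouse, so the p-values cover the spread among these libraries, which may be technical. The comparison asks how replication genes stand in epithelium designed to lack the Hippo kinases Mst1 and Mst2, which restrain growth through the coactivators YAP and TAZ.

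Replication starts when the origin recognition complex, Cdc6 and Cdt1 load the ring-shaped helicase of Mcm2 to Mcm7 onto DNA in G1. Cyclin E and other kinase activities then recruit Cdc45 and the GINS proteins to form the active helicase, polymerases copy the strands on the sliding clamp Pcna, and ribonucleotide reductase, thymidylate synthase and thymidine kinase supply nucleotides. Many of these genes are transcribed at the G1 to S boundary under the E2F factors. In stratified squamous epithelium such as that of the esophagus, dividing cells lie in the basal layer. RNA of the whole epithelium was measured, so more cells in S phase and more RNA in each such cell cannot be told apart.

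The estimated depth was 13070000 to 16450000 fragments per library. Stk3, the gene of Mst2, lay at 0.05 to 0.25 FPKM in KO and 2.08 to 3.48 FPKM in WT, whereas Stk4, the gene of Mst1, overlapped between the groups at 12.2 to 17.4 FPKM in KO and 17.0 to 22.7 FPKM in WT. A value over the whole gene does not show the deletion of single exons, so Stk4 is no check of the Mst1 allele. Keratins of squamous epithelium were high throughout, Krt13 and Krt4 having means of 36640 and 24580 FPKM in KO and 36760 and 27510 FPKM in WT. The summed level of 10 basal cell markers was 3572 to 5267 FPKM in KO and 3054 to 4964 FPKM in WT, and Krt5, Krt14 and Krt15 made up most of it. The mean log2(FPKM + 1) of the same 10, which serves as the covariate below, leaned the other way. It was 5.71 to 6.20 in KO and 5.80 to 6.58 in WT. Of 14 markers of fibroblasts, muscle and endothelium, 13 stayed under 1 FPKM in every library and 3 were listed at 0 throughout; their sum was 0.55 to 2.22 FPKM in KO and 5.05 to 14.4 FPKM in WT, where Dcn made up most of it. Of 9 immune markers 5 stayed under 1 FPKM, with sums of 5.34 to 17.1 FPKM in KO and 5.32 to 33.6 FPKM in WT. The part of these cells in the results below was not tested, apart from a covariate of the basal markers.

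Replication genes were mostly higher in the KO epithelium, and the rise was uneven between libraries. The mean FPKM was higher in KO for 38 of the 39 genes, by ratios of means of up to 3.07, and lower for Pcna alone, at a ratio of 0.834. The filter on low values, 5 or more libraries with 1 FPKM or more, was passed by 38 of the 39 genes and missed by Mcm10, and 28 reached 1 FPKM in all 10 libraries. The log2 fold change was above 0 for 37 of the 38, against 58.6% of all tested genes; Chaf1a, at 0.04, turned below 0 after scaling by median ratios. Among the 38 tested genes 12 rose (limma on log2(FPKM + 1) with Benjamini-Hochberg adjustment over all 11386 tested genes, adjusted p under 0.05), which is 31.6%, against 7.9% of all tested genes. The 12 were Mcm5, Gins1, Rfc4, Pola1, Prim1, Rpa2, Rrm1, Tyms, Tk1, Uhrf1, Ccne1 and Melk. None of the 38 fell by limma at an adjusted p under 0.05, against 4.96% of all tested genes called lower. At an unadjusted p under 0.05 also 0 of 38 were lower, and no share of all tested genes was computed for that threshold. A further 10 were higher with an adjusted p between 0.05 and 0.1, against 5.56% of all tested genes, and 29 of the 38 were higher with an unadjusted p under 0.05, against 19.1% of all tested genes. The median log2 fold change of the tested members was 0.56, and that of all tested genes was 0.06; the members' median was 0.28 with a pseudocount of 5 and 0.84 with one of 0.1. All genes called split into 900 higher and 565 lower (61.4% higher), but into 651 and 746 (46.6%) after scaling by median ratios and 685 and 746 (47.9%) after quantile normalization; the members split into 7 higher and 0 lower after the first and 8 and 0 after the second.

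**Figure D1:**
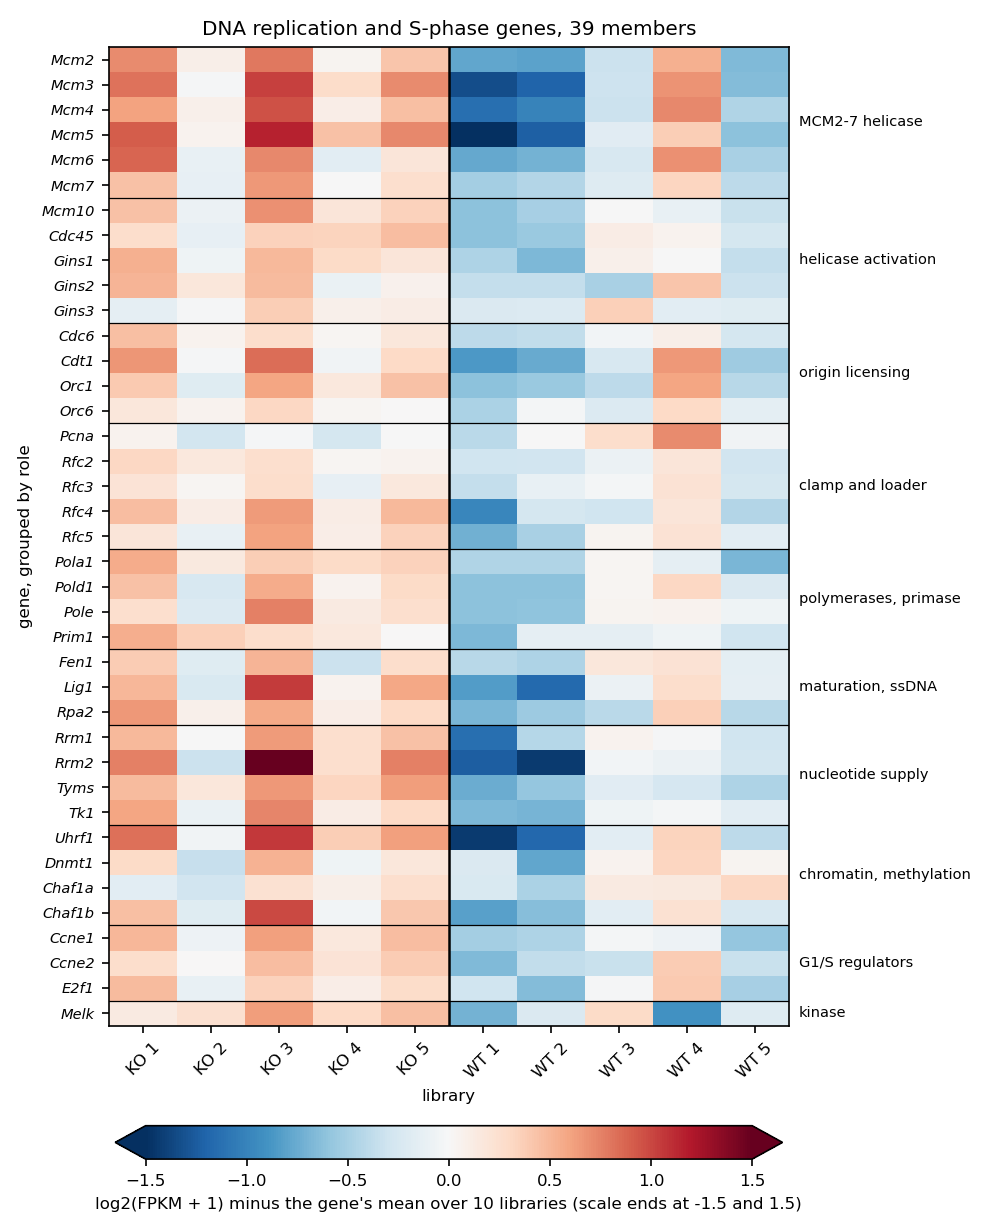
Heat map of all 39 genes, grouped by role (rows), in the 5 KO and 5 WT libraries (columns); colour gives log2(FPKM + 1) minus the gene's mean over the 10 libraries, red for above and blue for below. KO 3 holds the highest KO value for 27 genes and WT 4 the highest WT value for 28, and WT 1 is the lowest WT library for 25.

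The number of called members depended on single libraries. It was 2 of 38, or 5.26%, without KO 3, WT 1 or WT 5, against 5.02%, 4.35% and 3.83% of all tested genes in these fits. It was 3, or 7.89%, without KO 1 or KO 5, against 4.73% and 4.65% of all tested genes. Without WT 2 it was 6 (15.8%, against 9.58%), and without KO 4 it was 7 (18.4%, against 7.54%). It was 12 without KO 2 or WT 3 (31.6%, against 5.92% and 6.98%) and 23 without WT 4 (60.5%, against 8.36%). Pola1 and Tyms kept their call without each of the 10 libraries, and the median log2 fold change of the tested members stayed between 0.48 and 0.66. Groups did not overlap for 3 members, Pola1, Prim1 and Tyms, against 6.62% of all tested genes with every KO library above every WT library. As a share of the 39 this is close to that of all genes. With WT 4 left out it was 19 of the 39, against 9.99% of all tested genes, but WT 4 is the highest WT library for 28 members, so less overlap follows from that choice. It was 13 of the 39 without KO 2, the lowest KO library for 27 members, against 8.01% of all tested genes. Without WT 3 it was 7, against 8.32%. It was 3 without each of the other 7 libraries, against 6.76% to 10.2% of all tested genes.

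**Figure D2:**
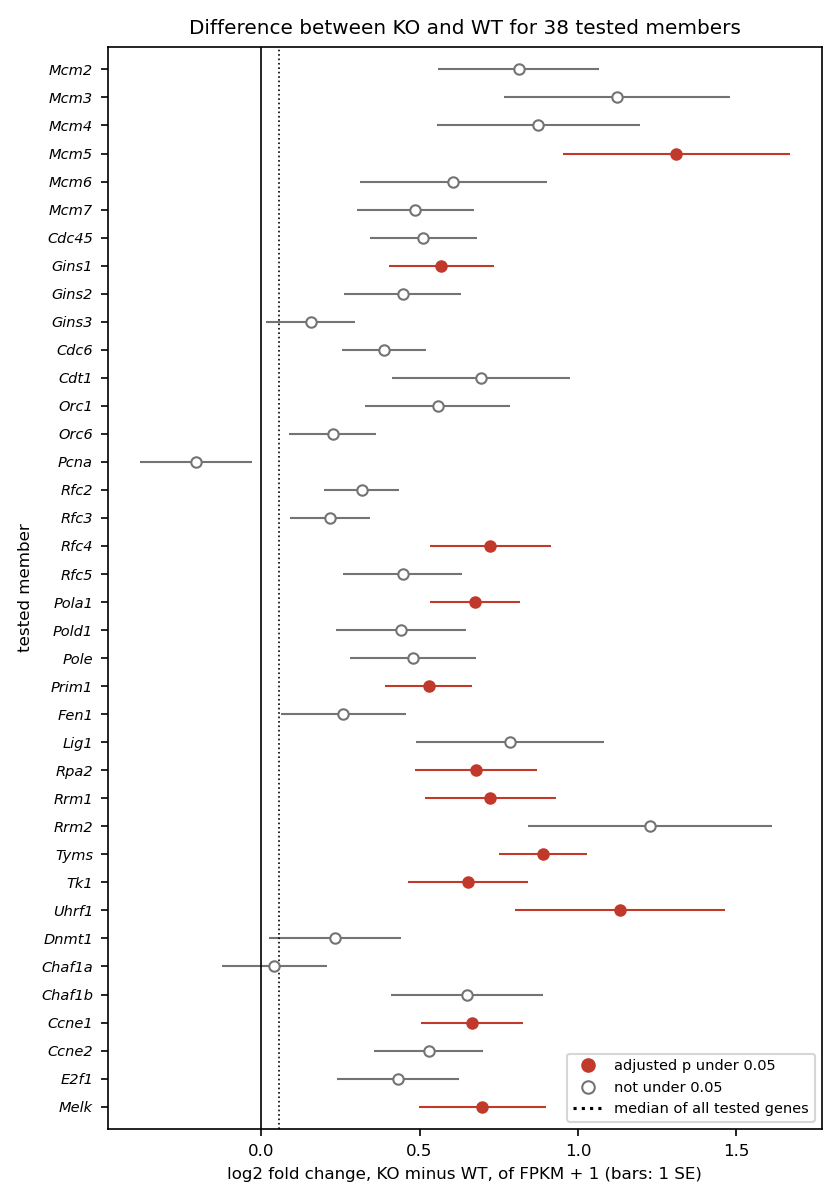
Log2 fold change (KO minus WT, on the log2(FPKM + 1) scale) with 1 SE for the 38 tested members in the order of their roles; filled red points have a limma adjusted p under 0.05, and the dotted line is the median of all tested genes, 0.06. All points but that of Pcna lie above 0, from 0.04 for Chaf1a, which turned below 0 after scaling by median ratios, to 1.31 for Mcm5.

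The 6 subunits of the replicative helicase all had a positive fold change, and Mcm5 rose past the threshold. Mcm5 (ENSMUSG00000005410, chromosome 8) had 14.5, 7.52, 17.2, 10.2 and 12.5 FPKM in KO 1 to 5, against 1.63, 2.52, 6.31, 9.61 and 4.37 FPKM in WT 1 to 5. All KO libraries but KO 2 were above every WT library, and WT 4 was the WT library nearest to KO. Its means were 12.4 ± 3.75 FPKM in KO and 4.89 ± 3.19 FPKM in WT (SD, n = 5 each), a log2 fold change of 1.31 with an SE of 0.36 (limma adjusted p = 0.0371), and the call ended without KO 1, 3, 4 or 5 or WT 1, 2 or 5 in turn (limma adjusted p of 0.0511 to 0.0823). Mcm4 (ENSMUSG00000022673, chromosome 16) had 13.5, 8.96, 17.4, 9.18 and 11.97 FPKM in KO 1 to 5, against 3.34, 3.73, 6.57, 14.6 and 5.96 FPKM in WT 1 to 5. Here WT 4 was above 4 of the 5 KO libraries, and the difference did not pass, at a log2 fold change of 0.88 with an SE of 0.32 (limma adjusted p = 0.0943); without WT 4 it was 1.16 (limma adjusted p = 0.00836). The other subunits showed the same WT library on top. Mcm2 lay at 3.34 to 6.29 FPKM in KO and 1.42 to 5.12 FPKM in WT, and Mcm3 at 5.93 to 13.3 FPKM in KO and 1.8 to 10.2 FPKM in WT. Mcm6 lay at 7.47 to 16.3 FPKM in KO and 4.55 to 14.2 FPKM in WT, and Mcm7 at 8.24 to 14.9 FPKM in KO and 6.1 to 11.6 FPKM in WT. WT 4 had the highest WT value of each. In all 6 subunits the lowest KO library was above the other 4 WT libraries. Their log2 fold changes were 0.81 for Mcm2, 1.12 for Mcm3, 0.61 for Mcm6 and 0.49 for Mcm7, with limma adjusted p of 0.0562, 0.0625, 0.192 and 0.0995. Without WT 4 all 6 passed, at limma adjusted p of 0.00517 (Mcm2) to 0.0343 (Mcm6). Of the sequence of Mcm7, a fraction of 0.334 (31-base stretches) also occurs in another gene, mostly Gm5487, which had at most 0.09 FPKM.

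The promoters of Mcm5 and Mcm6 are shown as examples of helicase genes with octamers known as E2F sites close to the start, and were picked for holding matches. The octamers searched were TTTCCCGC, TTTGGCGC, TTTCGCGC and TTTGCCGC on both strands, and they can overlap one another. The stretches below are the 250 bases before the start, 5′ to 3′ on the gene's strand, from RefSeq on GRCm38.p6, with matches in capitals. Mcm5 is at chr8:75109259-75109508, plus strand, and Mcm6 at chr1:128359706-128359955, minus strand.
Mcm5: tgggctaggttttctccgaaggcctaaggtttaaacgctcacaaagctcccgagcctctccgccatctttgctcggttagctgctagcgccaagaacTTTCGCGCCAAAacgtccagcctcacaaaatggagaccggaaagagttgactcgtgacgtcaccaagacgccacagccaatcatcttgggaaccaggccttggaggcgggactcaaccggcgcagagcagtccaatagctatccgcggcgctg
Mcm6: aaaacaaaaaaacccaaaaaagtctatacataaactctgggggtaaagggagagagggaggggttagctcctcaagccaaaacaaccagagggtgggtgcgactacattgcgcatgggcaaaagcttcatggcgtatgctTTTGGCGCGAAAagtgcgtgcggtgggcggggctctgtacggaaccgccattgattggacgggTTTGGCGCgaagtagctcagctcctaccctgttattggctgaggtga
In Mcm5 a pair of matches, TTTCGCGC on the gene's strand and TTTGGCGC on the other, overlaps and begins 153 bases before the start. In Mcm6 TTTGGCGC on the gene's strand and TTTCGCGC on the other overlap from 110 bases before the start, and a further TTTGGCGC begins 47 bases before it. A match is only a match of letters.

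Among the genes that activate the helicase, Gins1 rose. Gins1 (ENSMUSG00000027454, chromosome 2), a subunit of the GINS complex, had 2.83, 1.54, 2.71, 2.25 and 2.01 FPKM in KO 1 to 5, against 0.92, 0.67, 1.79, 1.64 and 1.08 FPKM in WT 1 to 5. KO 2 lay within the WT range and the other KO libraries above it. Its means were 2.27 ± 0.526 FPKM in KO and 1.22 ± 0.478 FPKM in WT (SD, n = 5 each), a log2 fold change of 0.57 with an SE of 0.17 (limma adjusted p = 0.0426), and the call ended without KO 1, 3, 4 or 5 or WT 1, 2 or 5 in turn (limma adjusted p of 0.0671 to 0.104). Cdc45, the partner of GINS in the active helicase, lay at 1.07 to 2.1 FPKM in KO and 0.47 to 1.43 FPKM in WT and did not pass, at a log2 fold change of 0.51 with an SE of 0.17 (limma adjusted p = 0.0673). Gins2 lay at 0.97 to 2.02 FPKM in KO and 0.51 to 1.82 FPKM in WT, with a log2 fold change of 0.45 (limma adjusted p = 0.129). Gins3 lay at 1.3 to 2.26 FPKM in KO and 1.17 to 2.25 FPKM in WT, with a log2 fold change of 0.16 (limma adjusted p = 0.493), and neither passed. A fraction of 0.662 of the sequence of Gins2 is shared, mostly with the overlapping annotation of Gse1, so its reads are uncertain. Mcm10, which helps to fire the loaded helicase, was the scarcest of the 39, with 1.25, 0.57, 1.68, 0.89 and 1.11 FPKM in KO 1 to 5, against 0.09, 0.18, 0.66, 0.54 and 0.32 FPKM in WT 1 to 5. These values correspond to an estimated 10.4 to 179 fragments per library. KO 2 was the KO library inside the WT range. Tested without the filter, Mcm10 had a log2 fold change of 0.62 with an SE of 0.17 (limma adjusted p = 0.0696).

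None of the 4 licensing genes passed by limma, although 3 had an unadjusted p under 0.05. Cdc6, which loads the helicase together with the origin recognition complex, had 1.83, 1.14, 1.49, 1.12 and 1.33 FPKM in KO 1 to 5, against 0.58, 0.6, 1.01, 1.2 and 0.73 FPKM in WT 1 to 5. Only WT 4 reached the lower KO libraries, and the log2 fold change of 0.39 with an SE of 0.13 (limma adjusted p = 0.0717) did not pass; without WT 4 it did, at a limma adjusted p of 0.0451. Cdt1, the other loading factor, lay at 2.05 to 4.66 FPKM in KO and 0.74 to 3.96 FPKM in WT, with WT 4 at 3.96 FPKM and the other WT libraries at or under 1.68 FPKM. Orc1, the origin subunit that varies most with the cell cycle, lay at 0.69 to 1.89 FPKM in KO and 0.25 to 1.9 FPKM in WT, and WT 4 was the highest of all 10 libraries. Both missed the threshold (limma adjusted p = 0.125 for Cdt1 and 0.127 for Orc1) and passed it without WT 4, at 0.0168 and 0.0131. Orc6 (ENSMUSG00000031697, chromosome 8) was the most abundant of the group, with 5.61, 5.07, 6.28, 4.99 and 4.89 FPKM in KO 1 to 5, against 3.22, 4.75, 4.08, 6.23 and 4.29 FPKM in WT 1 to 5. WT 4 lay among the KO libraries and the other WT libraries below all of them, and its log2 fold change of 0.23 with an SE of 0.14 (limma adjusted p = 0.2901) did not pass.

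The clamp Pcna stood against the rest of the genes, and its values are uncertain. Pcna (ENSMUSG00000027342, chromosome 2) had 17.8, 14.1, 16.97, 14.2 and 17.2 FPKM in KO 1 to 5, against 12.8, 17.1, 20.9, 28.9 and 16.6 FPKM in WT 1 to 5. The KO libraries lay within the WT range, and WT 4 was the highest of all. Its means were 16.04 ± 1.79 FPKM in KO and 19.2 ± 6.09 FPKM in WT (SD, n = 5 each), a log2 fold change of -0.20 with an SE of 0.18 (limma adjusted p = 0.473). A fraction of 0.233 of the sequence of Pcna also occurs in other genes, mostly in the processed pseudogene Pcna-ps2 (ENSMUSG00000067608, chromosome 19), which was chosen after its values were seen. Pcna-ps2 had 20.3, 16.2, 21.1, 18.1 and 17.5 FPKM in KO 1 to 5, against 0.85, 1.23, 2.49, 1.77 and 0.86 FPKM in WT 1 to 5, with no overlap. Its means were 18.6 ± 2.03 FPKM in KO and 1.44 ± 0.696 FPKM in WT (SD, n = 5 each), and the log2 fold change was 3.05 with an SE of 0.17 (limma adjusted p = 2.46e-07). With the fragments of both added up per length of Pcna, the libraries were at 24.4, 19.3, 23.9, 20.0 and 22.9 FPKM in KO, against 13.0, 17.5, 21.7, 29.4 and 16.9 FPKM in WT. The sign of the difference then turned, to a log2 fold change of 0.20 with an SE of 0.18 (limma adjusted p = 0.476), and it passed in neither form. How reads were divided between the gene and its copy was not tested. As the genetic background of the groups is not given, a difference in background cannot be told apart from the genotype in these values.

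**Figure D3:**
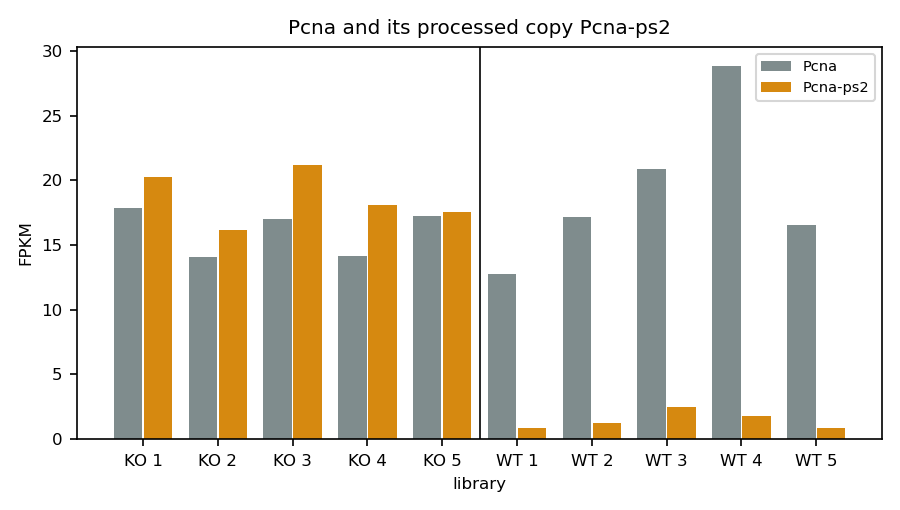
FPKM of Pcna (grey) and of its processed pseudogene Pcna-ps2 (orange) in each of the 5 KO and 5 WT libraries; bars start at 0 and each is 1 library. Pcna-ps2 is at 16.2 to 21.1 FPKM in KO and 0.85 to 2.49 FPKM in WT, while Pcna overlaps between the groups.

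Of the clamp loader subunits, which open Pcna and place it on DNA, Rfc4 rose. Rfc4 (ENSMUSG00000022881, chromosome 16) had 7.24, 5.48, 8.32, 5.48 and 7.36 FPKM in KO 1 to 5, against 2.03, 3.99, 3.85, 5.81 and 3.41 FPKM in WT 1 to 5. WT 4 lay above KO 2 and KO 4, and the other WT libraries were below all KO libraries. Its means were 6.78 ± 1.26 FPKM in KO and 3.82 ± 1.36 FPKM in WT (SD, n = 5 each), a log2 fold change of 0.72 with an SE of 0.19 (limma adjusted p = 0.0294), and the call ended without KO 1, 3 or 5 or WT 1 or 5 in turn (limma adjusted p of 0.054 to 0.0709). With the replicate number as a block it ended too (limma adjusted p = 0.056). Rfc2, Rfc3 and Rfc5 had smaller log2 fold changes, of 0.32, 0.22 and 0.45, and did not pass (limma adjusted p = 0.0961, 0.276 and 0.134). They lay between 2.49 and 4.82 FPKM in KO and between 1.32 and 3.43 FPKM in WT.

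Among the polymerases, the complex of DNA polymerase alpha and primase, which makes the primers of both strands, rose in both of its subunits tested as members. Pola1 (ENSMUSG00000006678, chromosome X), the catalytic subunit, had 3.96, 2.73, 3.36, 3.11 and 3.29 FPKM in KO 1 to 5, against 1.47, 1.48, 2.45, 2.09 and 1.1 FPKM in WT 1 to 5. Every KO library was above every WT library, the highest WT value being that of WT 3. Its means were 3.29 ± 0.447 FPKM in KO and 1.72 ± 0.542 FPKM in WT (SD, n = 5 each), a log2 fold change of 0.67 with an SE of 0.14 (limma adjusted p = 0.00991), and it kept its call without each library. Prim1 (ENSMUSG00000025395, chromosome 10), the small primase subunit, had 10.3, 8.93, 8.29, 7.7 and 6.78 FPKM in KO 1 to 5, against 3.87, 6.05, 6.06, 6.41 and 5.3 FPKM in WT 1 to 5. These groups did not overlap either, with KO 5 lowest in KO and WT 4 highest in WT. Its means were 8.41 ± 1.34 FPKM in KO and 5.54 ± 1.02 FPKM in WT (SD, n = 5 each), a log2 fold change of 0.53 with an SE of 0.14 (limma adjusted p = 0.0277), and the call ended without KO 1, 2 or 3 or WT 1 or 5 in turn (limma adjusted p of 0.0544 to 0.0672) and with the replicate number as a block (0.0565). Pold1, the catalytic subunit that extends the lagging strand, lay at 1.64 to 3.62 FPKM in KO and 1.04 to 2.88 FPKM in WT and did not pass (limma adjusted p = 0.173). Pole, its counterpart on the leading strand, lay at 0.68 to 2.27 FPKM in KO and 0.26 to 1 FPKM in WT and did not pass (limma adjusted p = 0.128). The promoter of Pola1 (chrX:93632156-93632405, minus strand, GRCm38.p6, RefSeq) is shown because this gene kept its call throughout; it holds 1 of the E2F octamers, TTTGGCGC on the other strand, 138 bases before the start.
Pola1: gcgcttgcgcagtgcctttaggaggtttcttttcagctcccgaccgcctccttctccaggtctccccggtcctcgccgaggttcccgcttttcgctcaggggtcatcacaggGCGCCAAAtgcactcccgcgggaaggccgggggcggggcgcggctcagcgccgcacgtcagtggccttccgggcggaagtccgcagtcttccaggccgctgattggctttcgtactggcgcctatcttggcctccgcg

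Of the genes that finish the lagging strand and hold single strands, Rpa2 rose. Rpa2 (ENSMUSG00000028884, chromosome 4), a subunit of the protein that coats single-stranded DNA, had 4.93, 3, 4.6, 3.05 and 3.64 FPKM in KO 1 to 5, against 1.35, 1.6, 1.85, 3.83 and 1.83 FPKM in WT 1 to 5. WT 4 lay among the KO libraries and far from the other WT libraries, which stayed at or under 1.85 FPKM. Its means were 3.84 ± 0.885 FPKM in KO and 2.09 ± 0.993 FPKM in WT (SD, n = 5 each), a log2 fold change of 0.68 with an SE of 0.19 (limma adjusted p = 0.0383), and the call ended without KO 1, 3 or 5 or WT 1, 2, 3 or 5 in turn (limma adjusted p of 0.0634 to 0.0983) and with the replicate number as a block (0.0683). Lig1, the ligase that joins Okazaki fragments, had 6.34, 3.46, 9.81, 4.42 and 6.8 FPKM in KO 1 to 5, against 1.91, 1.33, 3.92, 5.24 and 3.74 FPKM in WT 1 to 5. KO 3 was far above all others, KO 2 and KO 4 lay within the WT range, and the log2 fold change of 0.78 with an SE of 0.30 (limma adjusted p = 0.104) did not pass, but it passed with the replicate number as a block (0.0468). Fen1, the flap endonuclease, lay at 0.51 to 1.7 FPKM in KO and 0.37 to 1.2 FPKM in WT and did not pass (limma adjusted p = 0.408); a fraction of 0.796 of its sequence is shared with other annotations.

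The genes of nucleotide supply were the role with the most calls, 3 of 4. Tyms (ENSMUSG00000025747, chromosome 5), thymidylate synthase, had 3.97, 3.02, 4.61, 3.46 and 4.51 FPKM in KO 1 to 5, against 1.13, 1.39, 2.18, 2 and 1.59 FPKM in WT 1 to 5. No KO library reached down to the WT range, and WT 3 was the highest WT library. Its means were 3.91 ± 0.6797 FPKM in KO and 1.66 ± 0.432 FPKM in WT (SD, n = 5 each), a log2 fold change of 0.89 with an SE of 0.14 (limma adjusted p = 0.00165), the smallest p of the 38. Rrm1 (ENSMUSG00000030978, chromosome 7) and Rrm2 encode the large and the small subunit of ribonucleotide reductase. Rrm1 had 8.23, 5.58, 9.34, 6.9 and 7.95 FPKM in KO 1 to 5, against 2.03, 3.93, 5.84, 5.56 and 4.39 FPKM in WT 1 to 5. KO 2 lay within the WT range, and WT 1 was lowest of all. Its means were 7.6 ± 1.43 FPKM in KO and 4.35 ± 1.52 FPKM in WT (SD, n = 5 each), a log2 fold change of 0.72 with an SE of 0.21 (limma adjusted p = 0.0408), and the call ended without KO 1, 3, 4 or 5 or WT 1, 2 or 5 in turn (limma adjusted p of 0.0546 to 0.0903). Rrm2 had 9.89, 4.16, 18.9, 6.72 and 9.95 FPKM in KO 1 to 5, against 1.75, 1.4, 5.31, 5.06 and 4.35 FPKM in WT 1 to 5. It had the widest KO range of the group, with KO 3 far above the others and KO 2 below WT 3, WT 4 and WT 5. Its ratio of means was 2.78, and it did not pass, at a log2 fold change of 1.23 with an SE of 0.39 (limma adjusted p = 0.0611), whereas it passed without KO 2 (0.0339) and with the replicate number as a block (0.0117). Tk1 (ENSMUSG00000025574, chromosome 11), thymidine kinase, had 5.68, 3.14, 6.38, 3.78 and 4.46 FPKM in KO 1 to 5, against 1.77, 1.74, 3.23, 3.33 and 2.98 FPKM in WT 1 to 5. Only KO 2 lay within the WT range. Its means were 4.69 ± 1.33 FPKM in KO and 2.61 ± 0.791 FPKM in WT (SD, n = 5 each), a log2 fold change of 0.65 with an SE of 0.19 (limma adjusted p = 0.0423), and the call ended without KO 1, 3 or 5 or WT 1, 2 or 5 in turn (limma adjusted p of 0.06895 to 0.107).

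The promoter of Tyms (chr5:30073626-30073875, minus strand, GRCm38.p6, RefSeq) is shown beside that of Pola1 as the other gene with a stable call. It holds none of the 4 octamers, which says only that these letters are absent from the window.
Tyms: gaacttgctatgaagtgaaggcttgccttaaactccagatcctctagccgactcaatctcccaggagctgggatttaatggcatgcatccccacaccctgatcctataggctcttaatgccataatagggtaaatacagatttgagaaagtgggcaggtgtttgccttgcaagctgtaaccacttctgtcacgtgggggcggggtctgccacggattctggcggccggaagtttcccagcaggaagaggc
Of the 39 genes 33 had an entry among the RefSeq promoter windows of 300 bases, from 250 before to 50 after the start. At least 1 E2F octamer was found for 14 of the 33 (42.4%), against 2.6% of 27025 genes with an entry and 4.8% of 8183 tested genes. It was found for 3 of the 11 called members with an entry and for 11 of the other 22. CCAAT, the core of the NF-Y site, was found for 60.6% of the 33 and 41.1% of all genes, and TTTGAA or TTCGAA, on both strands and at any overlap, for 21.2% and 21.7%.

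**Figure D4:**
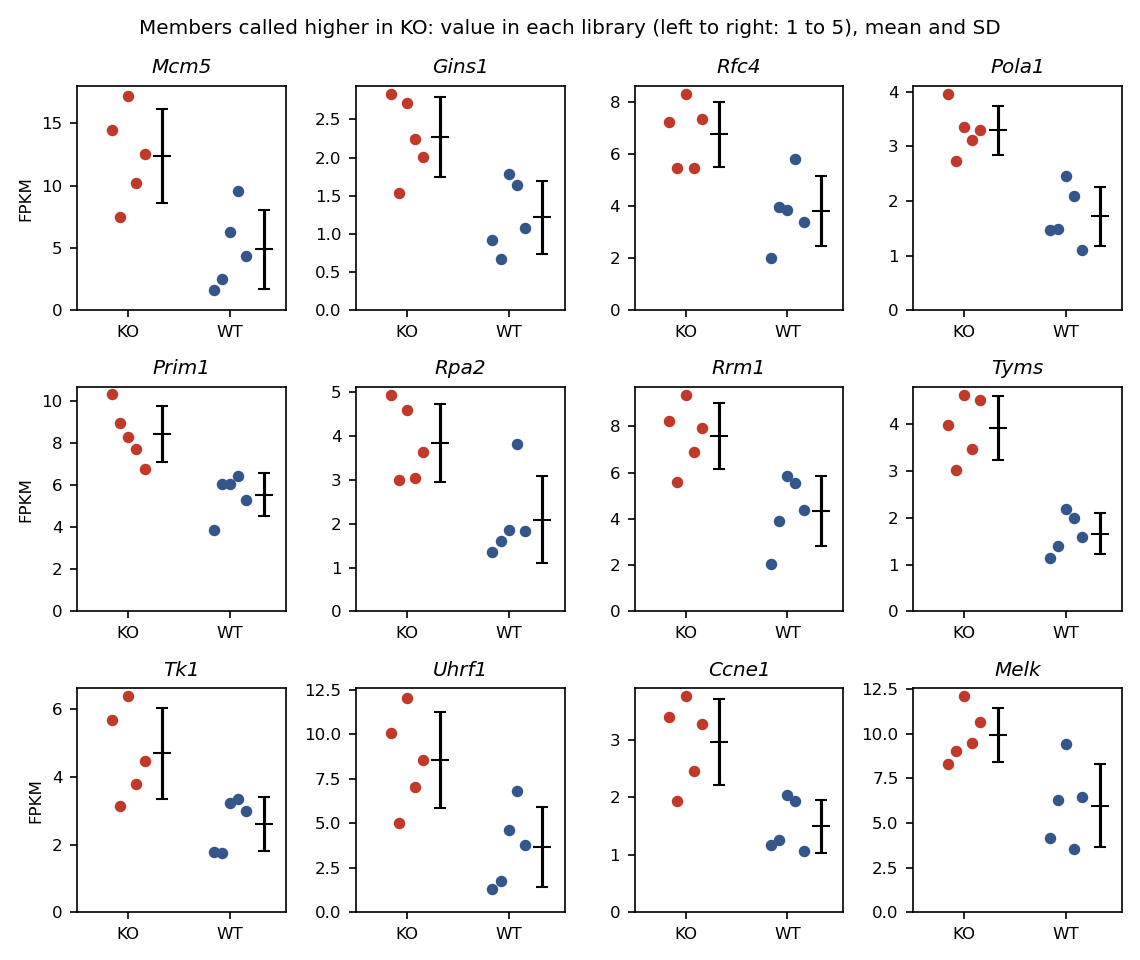
FPKM of the 12 members called higher, 1 panel per gene, with KO (red) left of WT (blue); each point is 1 library, in the order 1 to 5 from left to right, and the bar beside the points gives the mean and SD. The groups do not overlap for Pola1, Prim1 and Tyms, and for Rpa2 the WT 4 point stands at 3.83 FPKM among the KO libraries.

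Of the genes that copy chromatin and DNA methylation behind the fork, Uhrf1 rose. Uhrf1 (ENSMUSG00000001228, chromosome 17), which brings the maintenance methyltransferase to newly copied DNA, had 10.1, 5.03, 12.1, 7.06 and 8.56 FPKM in KO 1 to 5, against 1.31, 1.75, 4.61, 6.84 and 3.77 FPKM in WT 1 to 5. All KO libraries but KO 2 were above every WT library. Its means were 8.56 ± 2.71 FPKM in KO and 3.66 ± 2.25 FPKM in WT (SD, n = 5 each), a log2 fold change of 1.13 with an SE of 0.33 (limma adjusted p = 0.0466), and the call ended without KO 1, 3, 4 or 5 or WT 1, 2 or 5 in turn (limma adjusted p of 0.0611 to 0.0996). It shares a fraction of 0.242 of its sequence, mostly with Gm5648, which had at most 0.13 FPKM. Dnmt1, the methyltransferase itself, had 11.7, 7.19, 13.95, 8.96 and 10.7 FPKM in KO 1 to 5, against 7.91, 5.04, 9.75, 12.01 and 9.66 FPKM in WT 1 to 5. The groups overlapped widely, and the log2 fold change of 0.23 with an SE of 0.21 (limma adjusted p = 0.488) did not pass. Chaf1a and Chaf1b encode the large and middle subunits of chromatin assembly factor 1. Chaf1a lay at 2.15 to 3.57 FPKM in KO and 1.77 to 3.78 FPKM in WT with a log2 fold change of 0.04, which did not pass (limma adjusted p = 0.898). Chaf1b lay at 1.13 to 3.8 FPKM in KO and 0.38 to 1.83 FPKM in WT with a log2 fold change of 0.65, which did not pass either (limma adjusted p = 0.0932). A fraction of 0.51 of the sequence of Chaf1a is shared, mostly with the annotation of Ubxn6.

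Of the regulators of S-phase entry, the cyclin gene Ccne1 rose. Ccne1 (ENSMUSG00000002068, chromosome 7) had 3.39, 1.94, 3.76, 2.45 and 3.27 FPKM in KO 1 to 5, against 1.17, 1.25, 2.03, 1.94 and 1.07 FPKM in WT 1 to 5. KO 2 lay at the upper end of the WT range and the other KO libraries above it. Its means were 2.96 ± 0.745 FPKM in KO and 1.49 ± 0.456 FPKM in WT (SD, n = 5 each), a log2 fold change of 0.67 with an SE of 0.16 (limma adjusted p = 0.0206), and the call ended without KO 3 or 5 or WT 1 or 5 in turn (limma adjusted p of 0.0513 to 0.0597). Its paralog Ccne2 had 4.05, 3.23, 4.83, 3.88 and 4.52 FPKM in KO 1 to 5, against 1.67, 2.26, 2.36, 4.48 and 2.35 FPKM in WT 1 to 5. WT 4 stood among the KO libraries, and the log2 fold change of 0.53 with an SE of 0.17 (limma adjusted p = 0.0637) did not pass; without WT 4 it did (limma adjusted p = 0.006704). E2f1, an activating E2F factor, lay at 1.01 to 2.01 FPKM in KO and 0.38 to 1.86 FPKM in WT and did not pass (limma adjusted p = 0.157), whereas without WT 4 it passed at 0.0418.

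Melk, a kinase gene that peaks later in the cell cycle, rose and had another order of libraries. Melk (ENSMUSG00000035683, chromosome 4) had 8.32, 9.03, 12.1, 9.5 and 10.6 FPKM in KO 1 to 5, against 4.19, 6.31, 9.41, 3.53 and 6.47 FPKM in WT 1 to 5. WT 4, the highest WT library for 28 of the 39 genes, was the lowest of all 10 here, and WT 3 lay among the KO libraries. Its means were 9.92 ± 1.49 FPKM in KO and 5.98 ± 2.31 FPKM in WT (SD, n = 5 each), a log2 fold change of 0.70 with an SE of 0.20 (limma adjusted p = 0.04103), and the call ended without KO 1, 2, 3, 4 or 5 or WT 1, 4 or 5 in turn (limma adjusted p of 0.0538 to 0.103). Of the 12 called members it was the only one whose call ended without WT 4. WT 3 was the highest WT library for Mcm10, Cdc45, Gins1, Gins3, Pola1, Rrm1, Rrm2, Tyms, Ccne1 and Melk, and WT 5 for Chaf1a.

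Other genes of replication were taken from 6 lists with 122 genes, none of them a member. Of the 104 tested, 23 rose and 1 fell, with a median log2 fold change of 0.33. Among all tested genes 7.9% were called higher and 4.96% lower, which is the background of the called counts of each list. For genes lower at an unadjusted p no share of all tested genes was computed. Among other origin and fork genes 4 of 21 rose and none fell, with 0 lower at an unadjusted p under 0.05 (limma). Gmnn, geminin, which binds Cdt1 and blocks licensing again in the same cycle, was at 10.5 ± 1.28 FPKM in KO and 5.15 ± 0.978 FPKM in WT (SD, n = 5 each), a log2 fold change of 0.92 with an SE of 0.13 (limma adjusted p = 0.000698), with no overlap. Tipin, a fork protection factor, was at 10.7 ± 1.75 FPKM in KO and 6.25 ± 1.77 FPKM in WT, the Cdc7 activator Dbf4 at 3.06 ± 0.387 FPKM in KO and 1.78 ± 0.566 FPKM in WT and the fork protein Wdhd1 at 2.23 ± 0.559 FPKM in KO and 1.06 ± 0.486 FPKM in WT (SD, n = 5 each; limma adjusted p = 0.0181, 0.0231 and 0.0277).

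Among other DNA synthesis genes 6 of 15 rose and none fell, with 0 lower at an unadjusted p under 0.05 (limma). Prim2, the large primase subunit, was at 2.22 ± 0.391 FPKM in KO and 1.098 ± 0.295 FPKM in WT (SD, n = 5 each), a log2 fold change of 0.62 with an SE of 0.13 (limma adjusted p = 0.00928), with no overlap. Pola2, the remaining subunit of polymerase alpha, was at 1.91 ± 0.599 FPKM in KO and 1.25 ± 0.424 FPKM in WT and did not pass (limma adjusted p = 0.175). It was named after its values were seen. Pold2 and Pole2, accessory subunits of polymerases delta and epsilon, had log2 fold changes of 0.67 and 0.66, the RNase H2 genes Rnaseh2b and Rnaseh2c 0.42 and 0.63, and the topoisomerase gene Top1 0.35. Of nucleotide genes 5 of 15 rose and none fell, with 0 lower at an unadjusted p under 0.05 (limma). Dut, which keeps uracil out of DNA, was at 6.74 ± 0.826 FPKM in KO and 3.83 ± 1.29 FPKM in WT (SD, n = 5 each; limma adjusted p = 0.0162), with no overlap. Shmt1, Cad and Impdh2, of one-carbon, pyrimidine and purine metabolism, had log2 fold changes of 0.46, 0.77 and 0.49. Rnaseh2c and Impdh2 share fractions of 0.224 and 0.437 of their sequence with other genes.

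Of the genes that control the passage from G1 to S 4 of 26 rose and 1 fell, and a single lower call is no more than the share of lower calls among all tested genes. E2f2, an activating E2F factor, was at 3.25 ± 1.25 FPKM in KO and 1.37 ± 0.379 FPKM in WT (SD, n = 5 each; limma adjusted p = 0.0172) and did not overlap between the groups. Tfdp1, the partner of the E2F factors, was at 28.5 ± 2.58 FPKM in KO and 19.7 ± 3.47 FPKM in WT and shares a fraction of 0.217 of its sequence. Lin9, of the MuvB complex, was at 2.22 ± 0.647 FPKM in KO and 1.08 ± 0.2899 FPKM in WT and Skp2, of the ubiquitin ligase that removes p27, at 1.39 ± 0.288 FPKM in KO and 0.742 ± 0.231 FPKM in WT (limma adjusted p = 0.01495, 0.0169 and 0.0353 for Tfdp1, Lin9 and Skp2). Rbl2, the pocket protein p130 of resting cells, fell to 2.63 ± 0.235 FPKM in KO, against 3.99 ± 0.664 FPKM in WT (SD, n = 5 each), a log2 fold change of -0.45 with an SE of 0.11 (limma adjusted p = 0.0244). Of chromatin genes 2 of 13 rose, the histone chaperone gene Asf1b at 4.97 ± 2.1 FPKM in KO and 1.81 ± 0.984 FPKM in WT and the remodeler gene Hells at 4.998 ± 1.48 FPKM in KO and 2.19 ± 1.298 FPKM in WT (limma adjusted p = 0.0276 and 0.0328), and none fell, with 0 lower at an unadjusted p under 0.05 (limma). Of checkpoint and repair genes 2 of 14 rose and none fell, with 0 lower at an unadjusted p under 0.05 (limma). Msh6, a mismatch repair gene, was at 21.1 ± 2.52 FPKM in KO and 8.63 ± 1.56 FPKM in WT (SD, n = 5 each), a log2 fold change of 1.21 with an SE of 0.13 (limma adjusted p = 7.52e-05), the largest of all 104 by fold change and with no overlap. Wee1, the kinase that holds Cdk1 inactive, was at 7.22 ± 0.923 FPKM in KO and 4.45 ± 1.69 FPKM in WT (limma adjusted p = 0.0401).

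The mean log2(FPKM + 1) over the 39 genes gave the libraries an order in which the genotypes overlapped. It was 2.53, 2.04, 2.70, 2.19 and 2.42 in KO 1 to 5, against 1.41, 1.51, 2.00, 2.29 and 1.77 in WT 1 to 5. From highest to lowest the order was KO 3, KO 1, KO 5, WT 4, KO 4, KO 2, WT 3, WT 5, WT 2 and WT 1, and the KO library was the higher one in 23 of 25 pairs of a KO and a WT library. The group means were 2.37 ± 0.26 in KO and 1.80 ± 0.36 in WT (SD, n = 5 each). Neighbours in the middle of this order lay closer together than 1 SD of either group. The order was the same for means with a pseudocount of 0.1, of linear FPKM, of z-scores and over the 38 filtered genes; after scaling by median ratios 22 of 25 pairs had KO higher. As this mean is over genes chosen with results of these data known, it was not tested.

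Mitosis genes and clock output genes ordered the libraries otherwise. Over 16 mitosis genes such as Mki67 and Top2a the mean log2(FPKM + 1) was 2.76, 2.37, 3.43, 2.95 and 3.28 in KO 1 to 5, against 1.60, 2.06, 3.11, 2.26 and 2.65 in WT 1 to 5. All 16 had a positive log2 fold change, with a median of 0.67, beside 0.56 for the tested replication members. None of the 16 passed by limma, against 7.9% of all tested genes called higher. At an unadjusted p under 0.05 (limma) 8 were higher, against 19.1% of all tested genes. By replication genes WT 4 was above WT 3, KO 2 and KO 4, whereas by mitosis genes it was below all 3. The difference of the means, replication minus mitosis, was -0.23, -0.33, -0.73, -0.77 and -0.86 in KO 1 to 5, against -0.20, -0.55, -1.12, 0.03 and -0.89 in WT 1 to 5. The mean over the clock output genes Dbp, Nr1d1, Per3 and Tef, whose RNA in many tissues follows the time of day, was 4.08, 3.76, 2.13, 2.23 and 1.48 in KO 1 to 5, against 4.69, 3.95, 2.50, 4.33 and 3.05 in WT 1 to 5. The 5 libraries with the highest clock output, WT 1, WT 4, KO 1, WT 2 and KO 2, were also the 5 with the highest difference of replication minus mitosis. This match was not tested. By mitosis genes WT 1, WT 2, WT 4 and KO 2 were the lowest libraries. Ranked from the highest, WT 1 was 1 by clock output and 10 by the replication mean alone, and KO 3 was 9 and 1, which run opposite. WT 4 was 2 and 4, and KO 1 was 3 and 2, which do not. A relation of the replication mean to clock output was not tested. With the clock mean as a covariate the median log2 fold change of the tested members was 0.52, beside 0.56 without it, and 3 of the 38 were called, Pola1, Prim1 and Tyms, which is 7.89%, beside 7.75% of all tested genes. With the mean of the basal markers as a covariate the median was 0.65 and 8 were called, or 21.1%, beside 7.52% of all tested genes; 6 of the 8 were among the 12. Of the 10 basal markers 3 fell, Trp63, Col17a1 and Lama3, against 4.96% of all tested genes called lower. None rose, against 7.9% called higher. At an unadjusted p under 0.05 (limma) 0 were higher, against 19.1% of all tested genes. Trp63 was at 22.6 ± 3.58 FPKM in KO and 38.8 ± 5.46 FPKM in WT (SD, n = 5 each, limma adjusted p = 0.00293). The Cre of the KO mice carries the name of this gene, and an effect of the driver on Trp63 was not tested. By sign 3 of the 10 were positive and 7 negative. The positive ones were Krt5, Krt14 and Krt15, with log2 fold changes of 0.40, 0.29 and 0.11 that did not pass. The part of the clock, or of a time of collection, in the difference between the genotypes was not tested beyond the clock covariate.

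**Figure D5:**
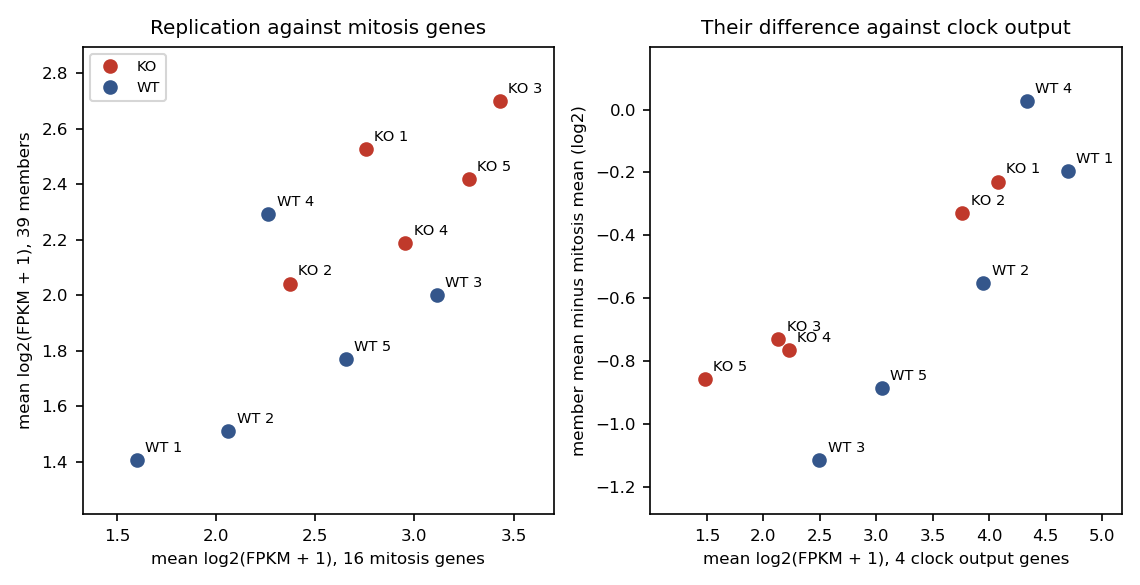
Left, the mean log2(FPKM + 1) of the 39 replication genes against that of 16 mitosis genes; right, the difference of these means against the mean of 4 clock output genes; each point is 1 library, KO in red and WT in blue. WT 4 lies at 2.29 on the replication axis but at 2.26 on the mitosis axis, and the right panel runs from a difference of -1.12 in WT 3 to 0.03 in WT 4.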

How the data were processed

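RNA-seq of esophageal epithelium from 5 KO and 5 WT samples was analysed from FPKM values that the authors deposited with 2 decimals. Per the submitters' processing notes the tools were HTSeq 0.6.1, HISAT2 2.0.1 and cutadapt, and the build was mm9; the sources used here give no settings, annotation or strand use, so reads of overlapping or antisense genes cannot be told apart. Values were tested as log2(FPKM + 1), which understates changes of low genes, for genes that reached 1 FPKM in 5 or more libraries, with limma 3.58.1 in R 4.3.3 (genotype alone, trend and robust estimation, Benjamini-Hochberg over 11386 genes). Count models were not applied to FPKM.

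Depth was estimated as the fragment total at which values of single-exon genes up to 1200 bases become whole within 0.01 fragments beyond rounding (98.0% to 98.4% of values, 9.3% to 11.1% by chance), with gene lengths from GENCODE M21. Chromosomes and shared 31-base sequences come from it too. Tested on simulated data for the 11386 genes with 200 changed, limma found 33.2% of log2 changes of 0.5, 82.6% of 1 and 98.0% of 2, with 4.9% false calls. In the data 1465 genes were called, more than the 200 changed in the simulation, so these rates need not hold for the members.

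The members and lists were chosen with earlier results of these data known. Values in every library are given for called members, for the most abundant and the smallest p of each role and for groups without overlap, and called genes of the 6 lists are named, except 1 that is not reported here; Mcm10, Pcna-ps2 and Pola2 fall outside that rule and were chosen after their values were seen. Alternatives were other pseudocounts, filters, scalings, weights, covariates, the replicate block and leaving out each library. Figures were drawn with matplotlib 3.10.9.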

Additional observations from a re-analysis of the deposited data

Results flagged for a closer look

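The check covered 42 groups of 5 libraries and so not all of the 39 members. In 3 of these groups, all WT, a library stood far from the others, by a gap of over 0.71 of the group's whole range. Chance flags about 1 in 20 groups. In each it was WT 4, as the highest. Mcm4 stood at 14.58 FPKM there, with the other WT libraries at 3.34 to 6.57 FPKM. Rpa2 stood at 3.83 FPKM, with the others at 1.35 to 1.85 FPKM. Ccne2 stood at 4.48 FPKM, with the others at 1.67 to 2.36 FPKM. Members outside the check also had WT 4 far on top. Orc1 was at 1.9 FPKM there and at most 0.46 FPKM in the other WT libraries, and Gins2 at 1.82 FPKM and at most 0.7 FPKM. Mcm2 was at 5.12 FPKM and at most 2.37 FPKM, and Mcm6 at 14.2 FPKM and at most 6.96 FPKM. The 3 flags are therefore no count over all members.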

How the results depend on the processing

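The number of members called higher was 12 as reported. It was 2 with no filter (5.13%, against 1.85% of all tested genes). With a filter at 5 FPKM it was 6 of 13 tested (46.2%, against 10.5%). It was 7 with median ratio scaling (18.4%, against 5.72%) and 3 with the clock covariate (7.89%, against 7.75%). The number ranged from 2 to 23 over the fits without single libraries, with the shares given above. Under the other alternatives it was 8 to 16, or 21.1% to 42.1%, against 6.02% to 12.2% of all tested genes. With no filter 27599 genes were adjusted over, and with the filter at 5 FPKM fewer members were tested; the other causes were not tested. No member was called lower in any of these fits. Over all genes 511 were called higher with no filter and 1390 with sample quality weights, and 329 lower with the filter at 5 FPKM; leaving out single libraries gave 436 to 1091 higher and 357 to 679 lower. The log2 fold change of Pcna turned to 0.20 when Pcna-ps2 was added, an alternative chosen after seeing the data. Chaf1a, at 0.04 as reported, turned to between -0.14 and -0.01 with median ratio scaling, quality weights, either covariate or without KO 3, KO 5, WT 1 or WT 2. No other tested member changed sign in the listed alternatives.

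Samples with the same replicate number deviated together weakly or not at all, apart from number 2 (correlations of -0.241 to 0.423). Of the 5 KO libraries 1 was closest to its own number. Such correlations cannot show whether the numbers pair the samples. With the replicate block 12 members were called (31.6%, against 6.79% of all tested genes), 9 of them shared with the 12 reported.

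The fewest estimated fragments of a member in a single library were the 10.4 of Mcm10 in WT 1, and Mcm10 reached 179 in KO 3. Fen1 stayed at 14.1 to 57.1 fragments per library and the called member Gins1 at 15.9 to 57.0, so depth limits these genes as well.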

Other observations

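The balance among the helicase subunits differed between the libraries. Mcm5 divided by Mcm7, both in FPKM, was 1.14, 0.913, 1.16, 1.12 and 1.14 in KO 1 to 5, against 0.267, 0.392, 0.807, 0.827 and 0.652 in WT 1 to 5, so every KO library was above every WT library. By group means Mcm5 was the most abundant subunit in KO, at 12.4 FPKM, but below Mcm4, Mcm6 and Mcm7 in WT, at 4.89 FPKM, where Mcm7 led at 7.73 FPKM. Mcm5 divided by Mcm6 was 0.885, 0.972, 1.18, 1.36 and 1.29 in KO 1 to 5, against 0.358, 0.526, 0.907, 0.677 and 0.764 in WT 1 to 5, and overlapped. These ratios were chosen after their values were seen and were not tested; a ratio shows unequal change and not which gene changed.

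A fraction of 0.193 of the sequence of Rfc5 also occurs in other genes, of which the annotation of Wsb2 shares the most. Wsb2 was at 7.55 to 10.7 FPKM in KO and 4.6 to 6.75 FPKM in WT, without overlap (limma adjusted p = 0.0291).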
